A study of Mus musculus with 4 samples.

Results

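The TGF-beta superfamily was described here by 10 genes in injured mouse kidneys. The genes, taken by symbol from a deposited table of 54078 features, were 7 ligand genes (Tgfb1, Tgfb2, Tgfb3, Bmp6, Bmp7, Inhba and Inhbb), 2 receptor genes (Tgfbr1 and Tgfbr2) and the inhibitory signal transducer Smad7. All 10 were found. The kidneys came from adult male mice at day 3 after both renal pedicles had been clamped for 30 min (bilateral ischemia-reperfusion, I/R). WT mice were Apela flox/flox Cre-/- littermates, which carry the floxed allele without Cre. ApelaKsp KO mice carry the same floxed allele and a Cre transgene under the Ksp-cadherin promoter, which acts in renal tubular epithelial cells, so cells outside the tubules keep Apela. Each group had 2 libraries (WT replicates 1 and 2, KO replicates 1 and 2), and each library was a pool of RNA from 3 mice, so n = 2 counts pools and p-values measure only the spread between pools. No uninjured kidney was analysed here, and differences concern genotype within injury. The labels give the strain as C57BL/6 x 129S4/SvJae, while the study's methods give C57BL/6.

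Ligands of this family are secreted as dimers of precursor chains. A dimer joins type II and type I receptor kinases, which phosphorylate SMAD proteins that enter the nucleus. TGF-beta and activin ligands act through SMAD2 and SMAD3, and bone morphogenetic proteins (BMPs) through SMAD1, SMAD5 and SMAD9, while SMAD7 blocks the type I receptors and is itself induced by the signal. In the kidney, Tgfb1 is best known for driving fibrosis after injury, and Bmp7 for nephron formation and for opposing Tgfb1.

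The unit was FPKM, a fragment count divided by gene length and by a size for each library, and the reads behind each value were recovered from it. Libraries held from 16045724 to 16927742 reads on genes. The size used was not this total, but 0.987 and 1.07 times it in WT replicates 1 and 2 and 0.988 and 0.968 times it in KO replicates 1 and 2. Apela, the targeted gene, had 5.27 and 4.57 FPKM in the WT pools and 0.536 and 0.245 FPKM in the KO pools. Its log2 fold change was -2.62 (limma unadjusted p = 1.32e-04, adjusted p = 0.466). Even the targeted gene thus did not reach an adjusted p under 0.05. Although 1 text of the series names adipose tissue, the summed level of 7 proximal tubule markers was between 5904 and 11010 FPKM, and of 5 fat cell genes Ucp1 was listed at 0 in every pool and Adipoq at 0 in 3 of the 4 pools. The summed level of these 5 genes was still higher in KO, with 8.27 and 3.19 FPKM against 1.43 and 0.312 FPKM in WT. Most of it was Cidec, a lipid droplet gene, with 7.92 and 2.79 FPKM in KO against 1.37 and 0.282 FPKM in WT and a log2 fold change of 2.12 (limma unadjusted p = 0.022, adjusted p = 0.785). WT replicate 2 stood apart by its immune cell genes, but not by these alone. The summed level of 12 macrophage markers was 501 FPKM there, against 213, 269 and 238 FPKM in WT replicate 1 and KO replicates 1 and 2. WT replicate 2 also had the lowest sums of proximal tubule (5904 FPKM), thick limb and distal (952 FPKM) and collecting duct markers (296 FPKM). Its sums of fibroblast (281 FPKM) and injured tubule markers (1589 FPKM) were the highest. The proximal tubule sum was mostly Kap, and Lrp2, Slc34a1 and Slc5a2 were lowest in KO replicate 1.

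No member passed the threshold of an adjusted p under 0.05 between the KO and WT pools, and nor did any of the 15414 genes tested (0%; limma, Benjamini-Hochberg). Tested genes had a mean of at least 0.5 FPKM, which 8 of the 10 members reached. Tgfb2 and Inhba did not. At an unadjusted p under 0.05 there were 0 of the 8 members, against 974 of all genes tested (6.32%). Both KO pools lay above both WT pools for 2 members, Tgfbr1 and Smad7, where 19.7% of all genes tested did. For 0 members did both lie below, where 18.1% of all genes tested did. Scaling the recovered reads by the total on genes, an alternative added after the data were seen, changed these shares to 12.9% above and 24.1% below, and left 1 member above, Tgfbr1, since the Smad7 pools then overlapped. It moved the share of higher genes among those at an unadjusted p under 0.05 from 52.1% to 37.1%. The median log2 fold change of the 8 members was 0.20, against 0.0071 over all genes tested, and the members ranged from -0.29 to 0.26. Leaving out WT replicate 1 brought that median to 0.017, and leaving out WT replicate 2 to 0.28. The adjusted p-values ran from 0.797 to 0.955 (limma).

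**Figure D1:**
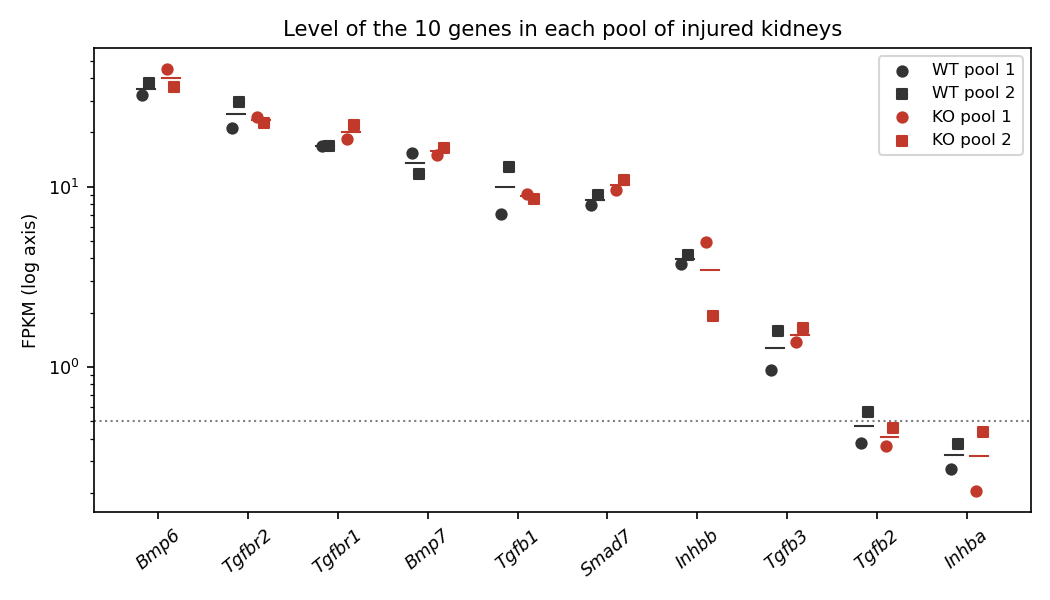
FPKM of each gene on a log axis, with genes ordered by mean level, WT pools in black and KO pools in red, replicate 1 as circles and replicate 2 as squares. Short lines are group means and the dotted line is the 0.5 FPKM filter. Bmp6 is the highest in every pool, Tgfb2 and Inhba have means under the filter, and the pools of WT and KO overlap in deposited FPKM except for Tgfbr1 and Smad7 (scaled by reads on genes, except for Tgfbr1 alone).

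Levels spread over more than 100-fold among the 10 genes. By the mean FPKM over the 4 pools, the order was Bmp6 (37.6), Tgfbr2 (24.5), Tgfbr1 (18.5), Bmp7 (14.6), Tgfb1 (9.39), Smad7 (9.34), Inhbb (3.69), Tgfb3 (1.39), Tgfb2 (0.439) and Inhba (0.321). Neighbours whose pools overlapped in level were Tgfbr2 and Tgfbr1, Bmp7 and Tgfb1, Tgfb1 and Smad7, and Tgfb2 and Inhba, although Tgfbr2 was above Tgfbr1 within every pool by FPKM. The place of Tgfb1 depends on the length it is divided by. The table divides by all annotated exons of a gene together, 5042 nt for Tgfb1, whose single protein-coding transcript in GENCODE M21 has 2175 nt. Per length of that transcript, a measure added after the values were seen, Tgfb1 had a mean of 21.8 and Bmp7 one of 16.02, so that the mean of Tgfb1 moved above those of Tgfbr1 (20.99) and Bmp7. Its place above Tgfbr1 rested on WT replicate 2, since without that pool the means were 19.1 for Tgfb1 and 21.7 for Tgfbr1. Tgfbr2 was then 0.919 times the level of Tgfbr1 in KO replicate 2 and above it in the other 3 pools. The reads that fall on the other annotated exons were not separated. The ratio of a gene's FPKM between KO and WT does not depend on this length.

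The ligand genes are recognisable by the cysteine-knot fold of the mature chain, and their closing bases show how far the paralogs can be told apart by reads. Printed are the last 75 coding bases before the stop codon, from the GENCODE M21 transcripts (GRCm38), in the strand of the gene, with cysteine codons in capitals.
Tgfb1: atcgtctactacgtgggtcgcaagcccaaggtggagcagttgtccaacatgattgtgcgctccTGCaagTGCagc
Tgfb2: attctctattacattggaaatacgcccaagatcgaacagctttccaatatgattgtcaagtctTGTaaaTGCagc
Tgfb3: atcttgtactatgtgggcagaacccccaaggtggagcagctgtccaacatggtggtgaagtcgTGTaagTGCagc
Bmp6: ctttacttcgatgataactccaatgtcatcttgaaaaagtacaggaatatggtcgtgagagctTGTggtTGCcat
Bmp7: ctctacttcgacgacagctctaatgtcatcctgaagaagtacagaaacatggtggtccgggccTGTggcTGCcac
Inhba: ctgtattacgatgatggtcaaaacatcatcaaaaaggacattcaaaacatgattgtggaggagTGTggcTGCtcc
Inhbb: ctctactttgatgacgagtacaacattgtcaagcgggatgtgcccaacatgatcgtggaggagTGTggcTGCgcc

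All 7 stretches hold 2 cysteine codons at the same place, separated by 1 codon. Tgfb1 and Tgfb3 had 59 of the 75 bases in common (78.7%), as did Bmp6 and Bmp7, Tgfb1 and Tgfb2 had 69.3%, and Inhba and Inhbb 72.0%. Pairs from different subgroups had between 41.3% and 58.7%. The stretches lie in the last exon of each gene, at chr7:25704865-25704939 for Tgfb1 (exon 7, plus strand), chr1:186625451-186625525 for Tgfb2 (exon 8, minus), chr12:86057783-86057857 for Tgfb3 (exon 7, minus), chr13:38498991-38499065 for Bmp6 (exon 7, plus), chr2:172870140-172870214 for Bmp7 (exon 7, minus), chr13:16027052-16027126 for Inhba (exon 5, plus) and chr1:119417325-119417399 for Inhbb (exon 2, minus). No window of 50 bases in the coding transcript of a member was found in a transcript of another member, so the similarity of the paralogs leaves no shared stretch of that length.

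Among the ligand genes of this set, Bmp6 and Bmp7 held most of the summed FPKM. Outside the set, Gdf15 had a mean of 55.35 FPKM over all pools and Bmp4 one of 19.1, above the means of Bmp6 and Bmp7 in turn. Bmp6, which is known for raising hepcidin and so controlling iron, had 32.2 and 37.6 FPKM in the WT pools and 44.9 and 35.7 FPKM in the KO pools. KO replicate 1 was the highest, and KO replicate 2 lay between the WT pools. WT averaged 34.9 ± 3.79 and KO 40.3 ± 6.51 (SD, n = 2 pools each), with a log2 fold change of 0.20 (95% interval -0.24 to 0.64; limma, Benjamini-Hochberg adjusted p = 0.852). It was 0.034 without KO replicate 1. Of the 3900 exon bases of Bmp6, 224 are also exon of Txndc5 on the opposite strand, a gene with 28.7 to 33.2 FPKM. Whether the counting used strand is not given in the sources used here, and the part of Txndc5 reads in the Bmp6 values was not tested.

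Bmp7, the kidney ligand named above as a counterpart of Tgfb1, had 15.3 and 11.7 FPKM in the WT pools and 15.1 and 16.4 FPKM in the KO pools. The low value was that of WT replicate 2, and the other 3 pools were close together. The part of tubule cells in the Bmp7 values was not tested. The log2 fold change was 0.23 (95% interval -0.20 to 0.66, adjusted p = 0.828, limma), and it was 0.041 without WT replicate 2. The sum over the 7 ligand genes was 59.9 and 68.9 FPKM in the WT pools and 75.9 and 65.1 FPKM in the KO pools. Bmp6 made up between 53.8% and 59.1% of it in the 4 pools, and Bmp7 between 17.0% and 25.5%. These shares depend on the length used for Tgfb1. Per length of the coding transcripts both BMPs together made up 70.2% and 59.3% in WT, against 69.8% and 69.7% in KO, and the 3 TGF-beta genes 24.4% and 35.7% in WT, against 24.6% and 27.4% in KO.

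**Figure D2:**
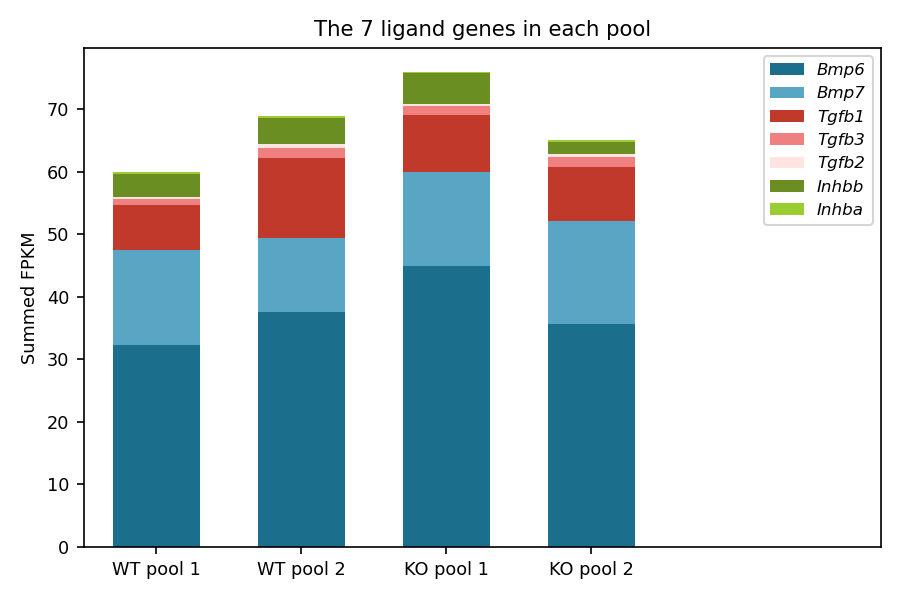
Stacked FPKM of the 7 ligand genes in each pool, one bar per pool, with BMPs in blue, TGF-beta genes in red and activin subunit genes in green. The BMPs are the larger part of every bar, between 71.6% in WT replicate 2 and 80.0% in KO replicate 2, and the red part is tallest in WT replicate 2, with 15.0 FPKM. Per length of the coding transcripts, which is not plotted, the BMP part is 59.3% in WT replicate 2.

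Among the TGF-beta ligand genes Tgfb1 held 80.4% to 85.7% of the summed level in the 4 pools. Tgfb1 had 7.07 and 12.9 FPKM in the WT pools and 9.07 and 8.57 FPKM in the KO pools, from 573, 1115, 765 and 702 reads. Both KO pools lay between the WT pools, which differed 1.82-fold from each other. WT averaged 9.96 ± 4.09 and KO 8.82 ± 0.351 (SD, n = 2 each), and the log2 fold change was -0.11 (95% interval -0.87 to 0.65; adjusted p = 0.955, limma). Its direction rested on WT replicate 2, as it was 0.30 without that pool and -0.52 without WT replicate 1. WT replicate 2 also held the highest value for 10 of 12 macrophage markers. All 12 of these genes were tested, and the median of their log2 fold changes was -0.59, or 0.047 without WT replicate 2. The summed level of 8 fibroblast markers, such as Col1a1 and Pdgfrb, was 142 and 281 FPKM in the WT pools and 171 and 191 FPKM in the KO pools. Their log2 fold changes had a median of -0.17, or 0.30 without WT replicate 2. Both KO pools lay between the WT pools for 5 of the 8 fibroblast markers and for 3 of the 12 macrophage markers (Cd68, Lyz2 and Mrc1). The shares of all genes tested with this order, or with the highest value in WT replicate 2, were not counted. These counts therefore show no particular likeness to Tgfb1. Both KO pools lay below both WT pools for 2 of the 8 fibroblast and 3 of the 12 macrophage markers, against 18.1% of all genes tested. The lists were not tested against each other. The part of these cells in the Tgfb1 values was not tested, and in whole kidney RNA fewer cells of a type and less RNA per cell cannot be told apart.

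**Figure D3:**
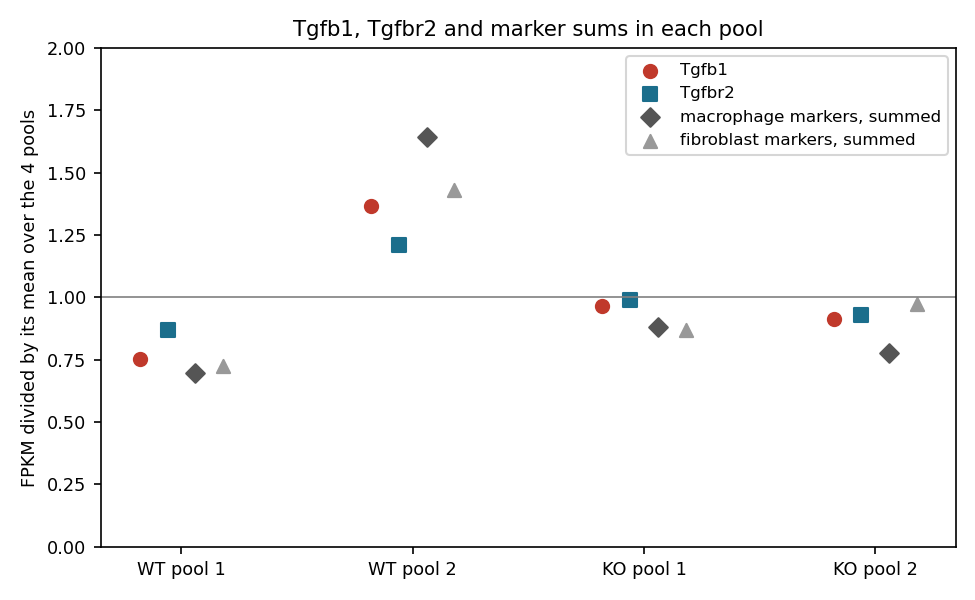
Tgfb1, Tgfbr2 and the summed FPKM of 12 macrophage and 8 fibroblast markers in each pool, each divided by its own mean over the 4 pools. All 4 quantities are highest in WT replicate 2 and lowest in WT replicate 1, while the KO pools lie between. For the macrophage sum this order rests on Lyz2, since the other 11 genes sum to 155 and 337 FPKM in WT, against 180 and 134 FPKM in KO.

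Tgfb3 and Tgfb2 were far lower. Tgfb3 had 0.956 and 1.58 FPKM in the WT pools and 1.38 and 1.64 FPKM in the KO pools, from 52 to 92 reads. Its log2 fold change was 0.20 (95% interval -0.44 to 0.84; adjusted p = 0.889, limma), and -0.054 without WT replicate 1, the lowest pool. Tgfb2 had 0.376 and 0.562 FPKM in the WT pools and 0.361 and 0.457 FPKM in the KO pools. These values rest on 35, 56, 35 and 43 reads, with exact 95% Poisson intervals that reach from 24.4 to 48.7 for the lowest and from 42.3 to 72.7 for the highest, so the pools overlapped in counting error alone. Such intervals cover counting error only. Of the exons of Tgfb3, 420 bases overlap 2 annotated genes of the opposite strand, Gm37804 and Gm48008, and of those of Tgfb2, 124 bases overlap Gm29491. All of these neighbours were listed at 0 in every pool.

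The activin subunit genes encode the beta A (Inhba) and beta B (Inhbb) chains. Inhbb had 3.74 and 4.17 FPKM in the WT pools and 4.96 and 1.91 FPKM in the KO pools, so that the KO pools held both the highest and the lowest value and differed 2.60-fold. This was the widest gap between pools of 1 group among the 10 genes. The log2 fold change of Inhbb was -0.29 (95% interval -1.37 to 0.78; adjusted p = 0.900, limma), and it turned to 0.29 without KO replicate 2 and was -0.88 without KO replicate 1. Inhba had 0.273 and 0.373 FPKM in the WT pools and 0.206 and 0.434 FPKM in the KO pools, from 22 to 45 reads. The KO pools again enclosed the WT pools, and Inhba was not tested. Activin genes together made up 6.70% and 6.59% of the summed ligand level in WT replicates 1 and 2, against 6.80% and 3.60% in KO replicates 1 and 2.

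Of the receptors, Tgfbr1, the type I kinase of TGF-beta, had 16.8 and 16.7 FPKM in the WT pools and 18.4 and 22.0 FPKM in the KO pools. In deposited FPKM the WT pools were nearly identical and both KO pools were higher. The means were 16.7 ± 0.0383 (SD, n = 2) and 20.2 ± 2.52 (SD, n = 2). Scaled by the reads on genes, Tgfbr1 had 16.55 and 17.93 in WT, against 18.23 and 21.31 in KO, so the WT pools were further apart. The log2 fold change of Tgfbr1 in deposited FPKM was 0.26 (95% interval -0.086 to 0.60; adjusted p = 0.797, limma), with 0.13 without KO replicate 2 and 0.38 without KO replicate 1. Tgfbr2, the type II receptor that binds the ligand first, had 21.3 and 29.6 FPKM in the WT pools and 24.2 and 22.7 FPKM in the KO pools. As for Tgfb1, the KO pools lay between the WT pools and WT replicate 2 was highest. The log2 fold change of Tgfbr2 was -0.10 (95% interval -0.59 to 0.40; adjusted p = 0.938, limma) and 0.14 without WT replicate 2.

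Smad7, the feedback inhibitor, had 7.87 and 9.00 FPKM in the WT pools and 9.55 and 10.9 FPKM in the KO pools, with all KO values above all WT values. WT averaged 8.44 ± 0.798 and KO 10.2 ± 0.974 (SD, n = 2 each), a ratio of 1.21 as for Tgfbr1. Its log2 fold change of 0.26 (95% interval -0.089 to 0.62; adjusted p = 0.797, limma) ran from 0.17 to 0.36 when single pools were omitted. The gap between the nearest pools of the groups, 9.00 and 9.55 FPKM, was smaller than the gap between the WT pools. Scaled by the reads on genes, Smad7 had 7.77 and 9.65 in WT, against 9.43 and 10.6 in KO, which overlap.

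Markers of endothelial cells, which line the vessels, also had higher values in KO. The summed level of 7 such genes was 152 and 169 FPKM in WT, against 218 and 224 FPKM in KO. Most of this sum was Plvap, and the other 6 genes together overlapped, with 48.6 and 58.8 FPKM in WT against 56.5 and 71.7 FPKM in KO. All 7 had a log2 fold change above 0 (6 when scaled by reads on genes), with a median of 0.29 that ran from 0.11 to 0.51 when single pools were omitted, while 51.4% of all genes tested were above 0. Both KO pools were the higher ones for 4 of the 7, against 19.7% of all genes tested (2 of the 7 against 12.9% when scaled by reads on genes), and 2 of the 7 had an unadjusted p under 0.05, against 6.32%. Plvap had a log2 fold change of 0.55 (limma unadjusted p = 0.0114, adjusted p = 0.743) and Flt1 one of 0.50 (limma unadjusted p = 0.0148, adjusted p = 0.757). Among 8 injured tubule markers the KO pools were both higher for 4 (2 when scaled by reads on genes) and both lower for 1, Vcam1. Lcn2 had a log2 fold change of 1.21 (limma unadjusted p = 0.00299, adjusted p = 0.613) and Krt20 one of 0.73 (limma unadjusted p = 0.00161, adjusted p = 0.545). The largest change of the 8 was that of Vcam1, with -1.91 (limma unadjusted p = 0.0459, adjusted p = 0.785). Havcr1 had -0.83 (limma adjusted p = 0.807). By log2 fold change 4 of the 8 were higher in KO, and the median was -0.036. For 19.7% of all genes tested both KO pools lay above both WT pools, and for 18.1% below. When scaled by reads on genes these shares were 12.9% and 24.1%. Of 5 podocyte markers 2 lay above (1 when so scaled) and 0 below. Of 7 proximal tubule markers 1 lay above (Slc22a6) and 3 below (Lrp2, Slc34a1 and Slc5a2). By log2 fold change the median of these 7 was -0.029. The part of these cells in the Tgfbr1 and Smad7 values was not tested.

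**Figure D4:**
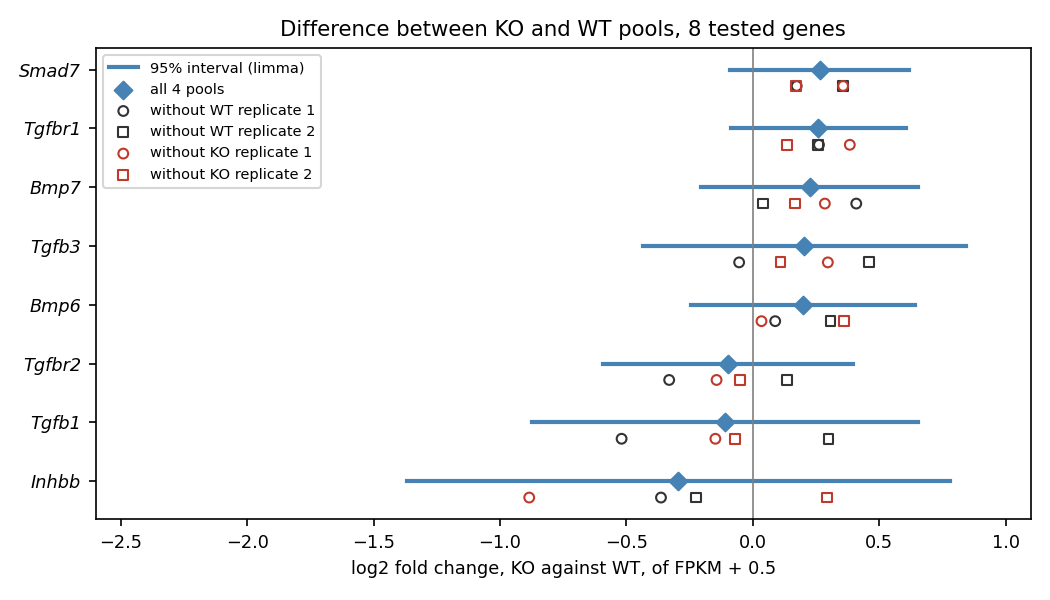
Log2 fold change of KO against WT on the log2(FPKM + 0.5) scale for the 8 tested genes, with 95% intervals from limma (diamonds and bars) and, under each, the value with 1 pool left out (open symbols). Every interval includes 0. Tgfb1, Tgfbr2, Tgfb3 and Inhbb cross 0 when 1 pool is left out, and Smad7, Tgfbr1, Bmp7 and Bmp6 stay above it.

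Ratios between members within a pool remove the scaling between libraries. The FPKM ratio of Bmp7 to Tgfb1 was 2.16 in WT replicate 1 and 0.912 in WT replicate 2, against 1.66 and 1.92 for KO replicates 1 and 2, so the WT pools enclosed the KO pools. Per length of the coding transcripts the same ratio was 1.02 and 0.431 in WT, against 0.785 and 0.905 in KO, which puts Bmp7 below Tgfb1 in 3 of the 4 pools. For Bmp6 to Bmp7 it was 2.11 and 3.21 in WT, against 2.98 and 2.17 in KO, and the KO values again lay between those of WT. Its log2 value, KO minus WT, was -0.027, and it was 0.27 without WT replicate 2. The ratio of Tgfbr2 to Tgfbr1 was 1.27 and 1.77 in WT, against 1.31 and 1.03 in KO. The ratio of Smad7 to Tgfbr1 varied least, with 0.469 and 0.538 in WT, against 0.518 and 0.496 in KO. None of these 4 ratios separated the groups, and with 2 pools a group they were too few for an exact permutation test to reach the threshold.

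The rest of the pathway was read from 96 further genes in 7 roles, of which 73 were tested. The limma fit gave 0 of them an adjusted p under 0.05 and 4 an unadjusted p under 0.05, 1 higher and 3 lower in KO, where 3.03% of all genes tested were lower at that p. Their median log2 fold change was -0.0054. Both KO pools lay above both WT pools for 7 of the 73 and below for 11, against 19.7% and 18.1% of all genes tested. The number at an unadjusted p under 0.05 rose without WT replicate 1 and fell without WT replicate 2. The number over all genes tested moved in the same directions for these 2 pools. Without either KO pool, the pathway number rose while the number over all genes tested fell.

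Of 21 other ligands 7 were tested, and 5 of these were higher in KO by their log2 fold change. Gdf15, a stress-induced ligand and the one with the highest mean, had 34.9 and 57.8 FPKM in the WT pools and 46.9 and 81.8 FPKM in the KO pools, which overlap. Bmp4, which is active in the developing urinary tract, had 16.8 and 16.03 FPKM in the WT pools and 23.8 and 19.8 FPKM in the KO pools. Its KO pools were both higher, with a log2 fold change of 0.39 (standard error 0.13; limma unadjusted p = 0.0362, adjusted p = 0.785). The values of Bmp6, Bmp7 and Bmp4 had log2 fold changes of 0.20, 0.23 and 0.39, and none passed the adjusted threshold.

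Of 20 inhibitors 18 were tested, and 5 of these had both KO pools below both WT pools and 1 had both above, where 18.1% and 19.7% of all genes tested did. Scaled by the reads on genes, the numbers were again 5 and 1, beside 24.1% and 12.9% of all genes tested. Fst encodes follistatin, which binds and neutralises activins. It had 3.58 and 3.43 FPKM in the WT pools and 2.20 and 2.14 FPKM in the KO pools, from 194, 199, 124 and 117 reads. Pools of a group were close together and the groups did not overlap, with a log2 fold change of -0.59 (standard error 0.13; limma unadjusted p = 0.00703, adjusted p = 0.690), which was between -0.61 and -0.56 when single pools were omitted. Dcn, decorin, a matrix proteoglycan that binds TGF-beta and is also made by fibroblasts, had 4.18 and 6.24 FPKM in the WT pools and 3.39 and 2.25 FPKM in the KO pools. Its log2 fold change was -0.78 (standard error 0.27; limma unadjusted p = 0.0356, adjusted p = 0.785), with -0.52 without WT replicate 2 and -1.05 without WT replicate 1. Sostdc1, a tubular antagonist of Bmp7 and the inhibitor with the highest mean, had 39.9 and 37.4 FPKM in the WT pools and 22.7 and 35.1 FPKM in the KO pools, with a log2 fold change of -0.45 (adjusted p = 0.798, limma). The low pool was KO replicate 1, and without it the value was -0.14.

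Among genes for latency and activation of TGF-beta, 12 of 13 were tested and 0 had an unadjusted p under 0.05, which 6.32% of all genes tested had. Furin, a protease that cleaves the precursors, had 34.7 and 29.9 FPKM in the WT pools and 41.1 and 39.0 FPKM in the KO pools. Of the other receptors, 10 of 12 were tested and 0 had an unadjusted p under 0.05, with Eng, the endothelial co-receptor endoglin, the highest at 38.7 and 49.7 FPKM in the WT pools and 44.98 and 56.9 FPKM in the KO pools. All 7 other SMAD genes were tested, again with 0 at that p, and Smad4, the common partner of the receptor-activated SMADs, had 19.1 and 19.7 FPKM in the WT pools and 21.2 and 19.0 FPKM in the KO pools.

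Target genes stand for the output of the pathways. Of 15 TGF-beta targets 14 were tested, with 0 at an unadjusted p under 0.05 (6.32% of all genes tested), 0 without overlap of the pools (19.7% above and 18.1% below over all genes tested), and a median log2 fold change of 0.029. Acta2, smooth muscle actin and the highest of them, had 43.0 and 98.4 FPKM in the WT pools and 60.6 and 125 FPKM in the KO pools. Of 8 BMP targets 5 were tested, of which 1 was higher in each KO pool than in either WT pool and 1 was lower, again beside 19.7% and 18.1% of all genes tested (0 and 1 when scaled by reads on genes). Id2, an inhibitor of DNA binding and the highest of them, had 112 and 114 FPKM in the WT pools and 112 and 125 FPKM in the KO pools. Id4 of the same family had 6.03 and 5.25 FPKM in the WT pools and 4.10 and 4.46 FPKM in the KO pools, with a log2 fold change of -0.36 (standard error 0.13; limma unadjusted p = 0.0436, adjusted p = 0.785).

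**Figure D5:**
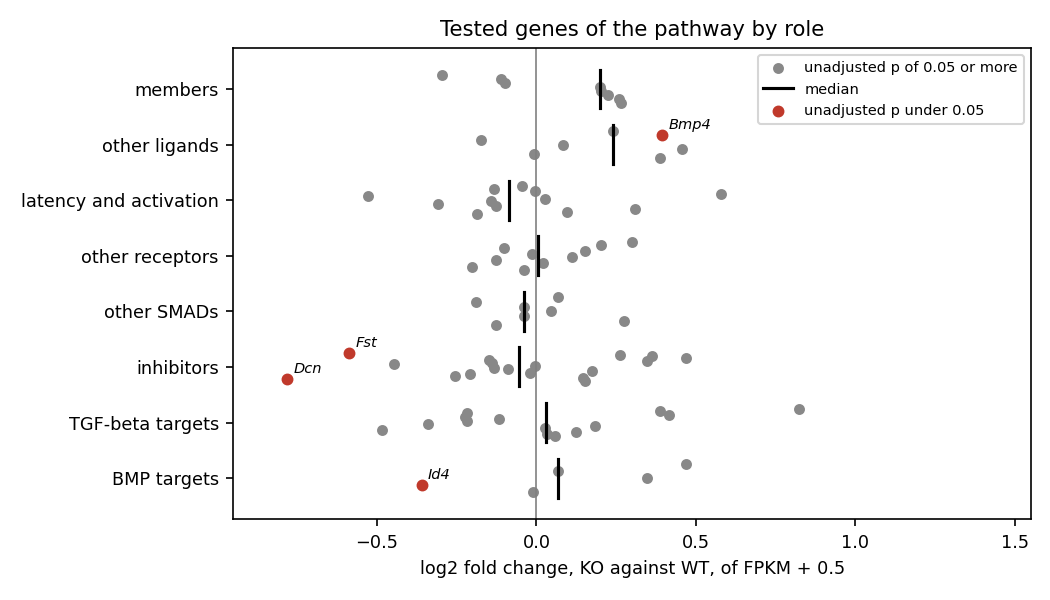
Log2 fold change of KO against WT on the log2(FPKM + 0.5) scale for the 8 tested members and the 73 other tested genes by role, 1 point a gene, with medians as black lines. Red points are the 4 genes with an unadjusted p under 0.05, namely Bmp4, Fst, Dcn and Id4, and the medians of all roles lie between -0.087 and 0.24.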

How the data were processed

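The authors deposited FPKM per gene for 4 libraries. The processing notes name HISAT2 2.0.5 and mm10 (GRCm38.p6). How the library size in the FPKM was set and the counting tool are not given in the sources used here. In the deposited FPKM, values times gene length were whole multiples of 1 read per library, within 0.01 of a read, for 100% of nonzero values. These reads gave the depth, between 16045724 and 16927742 per library. Gene lengths of the 10 members equal their summed GENCODE M21 exons, and 97.1% of shared genes had identical coordinates.

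log2(FPKM + 0.5) was compared with limma 3.58.1 in R 4.3.3 (mean-variance trend, no covariates, two-sided, Benjamini-Hochberg over 15414 genes that averaged 0.5 FPKM or more). This differs from a count test, since it was run on the deposited FPKM and the recovered reads were used only in alternatives. The fit was tested on simulated data, where it called nearly all of the larger changes set, missed most of the smaller ones and also called some unchanged genes. Changes were set there only in genes with many reads, and all genes were given the same spread beyond counting error. The simulation therefore does not show which changes the fit can detect in these pools, where Apela had an adjusted p of 0.466 (limma). Python 3.11.15, pandas 2.3.3, scipy 1.17.1 and matplotlib 3.10.9 were used otherwise.

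Members and lists were chosen with earlier results of these data known. The rule for other genes named each role's highest gene and up to 3 with an unadjusted p under 0.05 and pools that did not overlap. The table's symbol Ctgf stood for Ccn2. Alternatives were other pseudocounts, filters and normalizations, no trend, voom weights on the recovered reads, a replicate block, scaling by the reads on genes, and each pool left out. No genes were named for a similar pattern, since 4 libraries cannot rank likeness.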

Additional observations from a re-analysis of the deposited data

How the results depend on the processing

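Of 8 tested members, 4 changed direction with a pool left out, and 0 under another setting. With each pool left out, the log2 fold change ranged from -0.52 to 0.30 for Tgfb1, from -0.054 to 0.46 for Tgfb3, from -0.33 to 0.14 for Tgfbr2 and from -0.88 to 0.29 for Inhbb. The Bmp7 to Tgfb1 log2 ratio, KO minus WT, was 0.34, and -0.26 without WT replicate 2. With 1 pool left in a group, that pool was assumed to vary like the other group. Over all settings the limma adjusted p-values of the 8 tested members ran from 0.389 to 0.996, and without a filter that of Inhba was 0.9998 and that of Tgfb2 0.918. The number of genes past the threshold was 0 under all of them and 974 at an unadjusted p under 0.05, with 845 to 1538 at that p in the other settings with all 4 pools. With a pool left out it ran from 687 without WT replicate 2 to 1720 without WT replicate 1. The number of other pathway genes at that p was 4, and 2 with quantile normalization and 2 without a trend. It was 1 to 12 with a pool left out, 7 of them without KO replicate 1. Scaled by the reads on genes, the 8 tested members kept their directions, with log2 fold changes from -0.36 to 0.20 and a median of 0.14 against -0.057 over all genes, and 929 genes had that p, 3 of them pathway genes. Of the 73 pathway genes 6 then lay above and 14 below. Tgfb2 and Inhba rest on 22 to 56 reads a pool. A block for the replicate number gave 932 genes an unadjusted p under 0.05, 5 of them pathway genes, and no call on a member changed. Nothing in the sources used here says that same-numbered pools are paired. Deviations of same-numbered pools had a correlation of -0.0017 across genes, which with 2 pools a group cannot exclude a pairing.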

Other observations

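The following genes and ratios were chosen after their values were seen, and the ratios were not tested. Smad6, the inhibitory SMAD of the BMP branch, had 5.22 and 4.77 FPKM in the WT pools and 5.33 and 7.05 FPKM in the KO pools, with a log2 fold change of 0.27 (adjusted p = 0.804, limma), which was 0.087 without KO replicate 2. The KO pools were the higher ones, as for Smad7 and for 19.7% of all genes tested. Among the BMP targets, Id1 had 40.7 and 51.4 FPKM in the WT pools and 55.0 and 73.1 FPKM in the KO pools, and Id3 had 61.3 and 87.0 FPKM in the WT pools and 82.9 and 104 FPKM in the KO pools. In deposited FPKM, though not when scaled by the reads on genes, Id1 did not overlap between the groups (adjusted p = 0.797, limma), while Id3 did (adjusted p = 0.816, limma). The 7 endothelial markers had a median log2 fold change of 0.29, and their part in these values was not tested. The ratio of Bmp7 to its antagonist Sostdc1 was 0.383 and 0.314 in WT, against 0.666 and 0.468 in KO. Both KO pools had the higher ratio. The ratio of Inhbb to Fst was 1.05 and 1.22 in WT, against 2.26 and 0.894 in KO, with the KO pools on either side of the WT pools.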
